A study of Mus musculus with 4 samples.

Results

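Transcripts of the desmosome, the junction that ties neighbouring keratinocytes together and anchors their keratin filaments, were examined in cultured mouse keratinocytes with and without deletion of Prdm1, which encodes the transcriptional repressor Blimp-1. The members are 10 genes chosen by name: the desmocollins Dsc1, Dsc2 and Dsc3, the desmogleins Dsg2 and Dsg3, desmoplakin (Dsp), plakoglobin (Jup), the plakophilins Pkp1 and Pkp3, and Perp. By the platform annotation, 9 of them were read by 18 of the 22626 probe sets, among 12393 genes in all. Dsg3 was not analysed here. The cells came from tail skin of C57BL/6 mice whose Prdm1 gene was floxed, in every group. In the CKO groups they also carried CreER, a Cre recombinase switched on by 4-hydroxytamoxifen (4OHT), and in the control groups they did not. The sources used here do not name the promoter that drives CreER. The 4 groups were CKO with 4OHT, CKO with the solvent ethanol (EtOH), control with 4OHT and control with EtOH. The agent was present from day 1 to day 3 and the cells were collected on day 5. Each group was 1 array, so nothing below could be tested, and the precision is limited by there being 4 arrays. CKO and control cells came from different mice, so genotype and animal cannot be told apart, and the number of mice behind each culture is not stated in the labels.

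In a desmosome, desmocollins and desmogleins are the cadherins that bridge the gap between cells. Their tails bind plakoglobin and plakophilins in a plaque under the membrane, and desmoplakin links that plaque to keratin filaments. In epidermis the cadherins are layered: Dsc1 marks the differentiating upper layers, while Dsc2, Dsc3, Dsg2 and Dsg3 are typical of lower layers. In the RefSeq gene table for GRCm38.p6 the cadherin genes stand in 1 block of 9 protein-coding genes in the order Dsc3, Dsc2, Dsc1, Dsg1c, Dsg1a, Dsg1b, Dsg4, Dsg3 and Dsg2, so the measured Dsg2 and the 3 desmocollins lie at opposite ends of it.

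Levels below are RMA intensities on a linear scale and differences are on the log2 scale. Genes whose highest level was at least 20.04, the median over the whole table, were taken as measured: 7461 genes, with all 9 desmosome genes that have a probe set among them. The arrays had medians between 19.95 and 20.22, the highest in control 4OHT. Prdm1 had an intensity of 6.43 in CKO 4OHT, 17.0 in CKO EtOH, 52.4 in control 4OHT and 20.7 in control EtOH. The CKO 4OHT array was thus the lowest and control 4OHT the highest, each at least 2-fold from every other array. Both CKO values were under 20.04. The sources used here do not say which part of the gene its probe set reads. Esr1, read as a check on the estrogen receptor part of CreER, was at 44.4 in CKO 4OHT, 54.3 in CKO EtOH, 18.2 in control 4OHT and 11.3 in control EtOH, higher on both arrays labelled with CreER. The summed level of 7 keratinocyte markers that are no desmosome genes was between 12748 and 13343 on the 4 arrays, most of it from Krt14 and Krt5. Among them Itgb4, an integrin of the hemidesmosome, was at 551 in CKO 4OHT against 315 to 391 on the others. The other markers did not share this. Its partner Itga6 was at 501 in CKO 4OHT, 442 in CKO EtOH, 388 in control 4OHT and 613 in control EtOH. Krt5, Krt14 and Trp63 were lowest in CKO 4OHT, and Col17a1 was neither highest nor lowest there. Krt15 was highest there but no higher than 15.5 on any array. Simple epithelium markers, 4 genes of which 3 were measured, summed to 407 in CKO 4OHT, 270 in CKO EtOH, 341 in control 4OHT and 260 in control EtOH. Of these, Epcam, an epithelial adhesion molecule, was at 325 in CKO 4OHT, 161 in CKO EtOH, 245 in control 4OHT and 164 in control EtOH. The paired simple keratins went opposite ways in CKO 4OHT: Krt8 was at 43.8 there against 73.4 to 90.2 on the others, and Krt18 at 30.2 against 10.7 to 13.5. Krt18 was under the level filter on those other arrays, and Krt8 was read by the brightest of its 3 probe sets. The part of these shifts in the values below was not tested. Of the markers of fibroblasts, endothelial cells, leukocytes, Merkel cells and muscle (23 listed, all with a probe set), 2 reached the level filter, and none was above 28.9 on any array. Of 6 melanocyte markers 4 reached the filter. All 6 together summed to 146 in CKO 4OHT, 119 in CKO EtOH, 129 in control 4OHT and 126 in control EtOH.

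Dsc1, the desmocollin of the upper layers, had the widest range over the arrays, 1.86 on the log2 scale. It had an intensity of 25.2 in CKO 4OHT, 28.6 in CKO EtOH, 66.8 in control 4OHT and 18.5 in control EtOH (probe set 1421460_at). Control 4OHT stood above the other 3 arrays, by 2.34-fold over the nearest, and control EtOH lay under the level filter. In control 4OHT Dsc1 was 3.62-fold above control EtOH, the fifth highest difference among the 7461 measured genes. In CKO cells the same agent came with a difference of -0.19. The CKO 4OHT array was 2.66-fold below control 4OHT (-1.41, and -1.01 with a pseudocount of 16). CKO EtOH was 0.63 above control EtOH, a value that was 0.37 with a pseudocount of 16. The difference with 4OHT in CKO minus that in control was -2.04, and -1.38 with the same pseudocount. RMA compresses dim values, and a level near the filter makes these folds imprecise.

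The summed level of upper-layer keratinocyte markers was also highest on the control 4OHT array, and so were 3 of the 4 measured markers. How many of all measured genes were highest there was not counted. The sum over 6 genes was 586 in CKO 4OHT, 721 in CKO EtOH, 942 in control 4OHT and 529 in control EtOH. Krt1, the first suprabasal keratin, was at 21.8 in CKO 4OHT, 205 in CKO EtOH, 246 in control 4OHT and 136 in control EtOH. Its partner Krt10 was at 249 in CKO 4OHT, 328 in CKO EtOH, 352 in control 4OHT and 209 in control EtOH. Loricrin (Lor), a cornified envelope protein, was at 104 in CKO 4OHT, 110 in CKO EtOH, 151 in control 4OHT and 110 in control EtOH. These 3 share the high control 4OHT array with Dsc1, but Krt1 alone is far below the rest in CKO 4OHT. Tgm1, the envelope transglutaminase, was at 198 in CKO 4OHT, 67.2 in CKO EtOH, 180 in control 4OHT and 63.3 in control EtOH, so both 4OHT arrays were high. Filaggrin (Flg) and involucrin (Ivl) were no higher than 10.1 on any array. A shift in the share of differentiated cells and a change of Dsc1 per cell cannot be told apart in these bulk cultures, and the part of the marker shift in the Dsc1 values was not tested.

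Dsc2 and Dsc3 were likewise highest in control 4OHT, with smaller differences. Dsc2 had an intensity of 151 in CKO 4OHT, 142 in CKO EtOH, 201 in control 4OHT and 134 in control EtOH by 1426911_at. Its other probe set, 1421156_a_at, read 156 in CKO 4OHT, 126 in CKO EtOH, 236 in control 4OHT and 122 in control EtOH. Both probe sets put control 4OHT above the other arrays, with differences of 0.59 and 0.96 from control EtOH, and in CKO cells 4OHT came with 0.09 and 0.31. Dsc3, a desmocollin of the basal layer, was at 71.2 in CKO 4OHT, 55.9 in CKO EtOH, 76.7 in control 4OHT and 41.0 in control EtOH. Both 4OHT arrays were above both EtOH arrays: the difference with 4OHT was 0.35 in CKO cells and 0.90 in control cells. At -0.11, Dsc3 had the smallest distance of the 3 desmocollins between CKO 4OHT and control 4OHT.

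Dsg2, a desmoglein of basal keratinocytes and simple epithelia, ran the other way. By its brightest probe set, 1449740_s_at, it was at 69.5 in CKO 4OHT, 137 in CKO EtOH, 90.0 in control 4OHT and 151 in control EtOH. Both 4OHT arrays were below both EtOH arrays, with differences of -0.98 in CKO cells and -0.75 in control cells. A second probe set of almost the same brightness, 1439476_at, read 56.0 in CKO 4OHT, 137 in CKO EtOH, 109 in control 4OHT and 123 in control EtOH. There the lower value belonged mainly to CKO 4OHT, which was 2.45-fold below CKO EtOH (-1.29) and 1.95-fold below control 4OHT (-0.96), while control cells differed by -0.17. All 6 Dsg2 probe sets were lower with 4OHT in both genotypes, with differences from -0.21 to -1.29 in CKO cells and from -0.16 to -0.75 in control cells. Of the 6, 2 (1426153_a_at and 1449741_at) stayed under the level filter on every array. The probe sets thus share a direction with 4OHT but not the size in either genotype, and 1449740_s_at is of a design that can cross-hybridise. The same design holds for 1425619_s_at of Dsg2, for 1435494_s_at of Dsp and for 1426873_s_at, which read Jup.

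**Figure D1:**
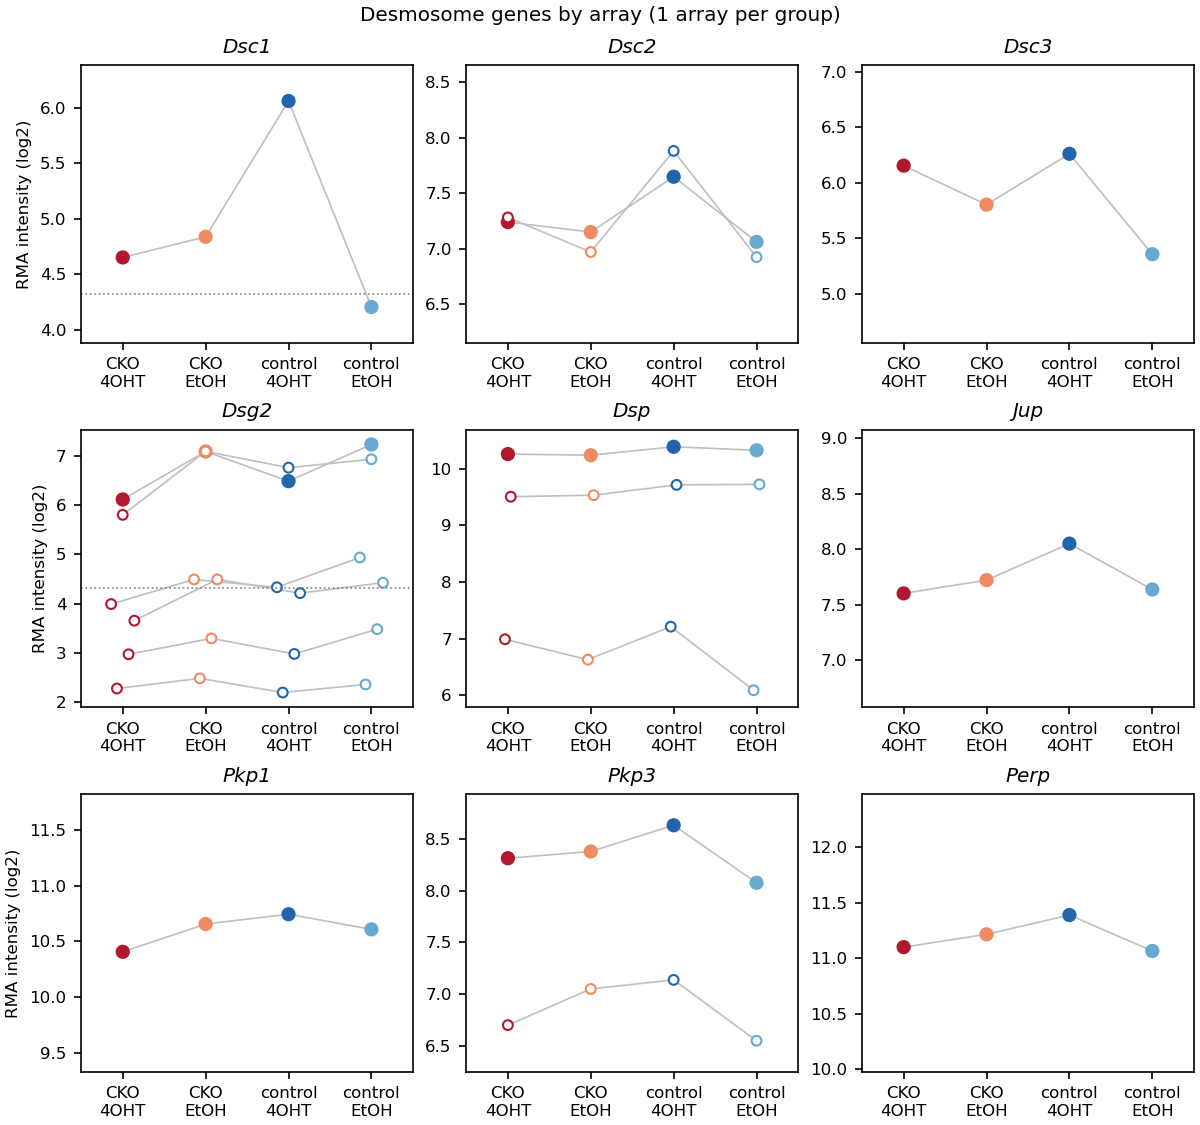
RMA intensity (log2, y axis) of each desmosome gene on the 4 arrays (x axis, 1 array per group). Filled points are the probe set that stands for the gene, open points its further probe sets, grey lines join the values of a probe set, and the dotted line is the level filter of 4.32. By the filled points, control 4OHT is the highest array for every gene except Dsg2, where CKO 4OHT is lowest. The share of all measured genes highest in control 4OHT was not counted.

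The plaque genes Jup, Pkp1 and Pkp3 differed by less than 2-fold between any arrays. Jup, which binds the cadherin tails, was at 194 in CKO 4OHT, 211 in CKO EtOH, 265 in control 4OHT and 199 in control EtOH. Control 4OHT was 1.33-fold above control EtOH (0.41), and the other 3 arrays lay between 194 and 211. Pkp3, a plakophilin found through all epidermal layers, was at 318 in CKO 4OHT, 333 in CKO EtOH, 397 in control 4OHT and 270 in control EtOH by 1418831_at. Its second probe set read 104 in CKO 4OHT, 133 in CKO EtOH, 141 in control 4OHT and 93.7 in control EtOH. Both put control 4OHT highest and control EtOH lowest. The difference with 4OHT was -0.07 in CKO cells and 0.56 in control cells by the first, and -0.35 in CKO cells and 0.59 in control cells by the second. Pkp1, the plakophilin of the upper layers whose loss in humans causes skin fragility, was at 1358 in CKO 4OHT, 1615 in CKO EtOH, 1717 in control 4OHT and 1562 in control EtOH. CKO 4OHT was the lowest array for Pkp1, with differences of -0.25 from CKO EtOH and -0.34 from control 4OHT.

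Dsp, the plakin that carries the keratin attachment, was nearly level by its brightest probe set, 1435494_s_at: 1222 in CKO 4OHT, 1205 in CKO EtOH, 1337 in control 4OHT and 1281 in control EtOH. A second bright probe set, 1435493_at, read 726 in CKO 4OHT, 740 in CKO EtOH, 839 in control 4OHT and 845 in control EtOH, and no pair of its arrays differed by more than 0.22. A dimmer one, 1427610_at, read 127 in CKO 4OHT, 99.0 in CKO EtOH, 148 in control 4OHT and 68.2 in control EtOH, a difference with 4OHT of 0.36 in CKO cells and 1.12 in control cells. The 3 probe sets of Dsp therefore disagree on 4OHT in control cells, with 0.06, -0.01 and 1.12. The sources used here do not say which Dsp transcripts each of them reads. Perp, a tetraspan membrane protein of the desmosome and a target of p63 and p53, was at 2194 in CKO 4OHT, 2377 in CKO EtOH, 2681 in control 4OHT and 2142 in control EtOH. The difference with 4OHT was -0.12 in CKO cells and 0.32 in control cells.

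The search of the RefSeq promoter table left out the chromosome that holds the cadherin genes, so their promoters were not looked up. Among the other members the table held Dsp and Jup, and these are shown as the plaque genes whose starts could be read. Each sequence runs from 250 bases before to 50 bases after an annotated start (GRCm38.p6), and capitals mark matches on either strand to CACCC, a core recognised by KLF factors. The Dsp window is chr13:38151044-38151343 on the plus strand and the Jup window chr11:100397741-100398040 on the minus strand.
Dsp: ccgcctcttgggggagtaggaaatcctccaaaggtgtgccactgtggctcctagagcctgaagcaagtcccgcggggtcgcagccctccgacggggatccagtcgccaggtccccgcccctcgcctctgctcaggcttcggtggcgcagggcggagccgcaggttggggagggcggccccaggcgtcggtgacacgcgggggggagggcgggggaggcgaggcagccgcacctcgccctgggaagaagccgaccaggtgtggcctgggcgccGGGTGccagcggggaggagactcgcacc
Jup: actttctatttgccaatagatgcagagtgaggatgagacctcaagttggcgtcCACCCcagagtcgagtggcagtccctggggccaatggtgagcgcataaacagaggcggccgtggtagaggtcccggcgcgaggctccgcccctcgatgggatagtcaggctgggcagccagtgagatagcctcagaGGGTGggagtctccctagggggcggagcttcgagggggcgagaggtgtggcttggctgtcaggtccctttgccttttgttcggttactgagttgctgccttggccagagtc
Dsp held 1 match, starting at base 23 after the start, and Jup 2, at 197 and 61 bases before it. CACCC occurs in 57.5% of the 32851 windows of the table. Neither window held AGNGAAAG, a Blimp-1 motif (8.63% of windows), AACCNGGTT, a grainyhead-like motif (0.27%), or TGANTCA, an AP-1 motif (7.81%). These matches only describe the letters of the windows.

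CKO 4OHT against control 4OHT asked how cells with CreER differed from cells without it when both had the inducer. All 9 desmosome genes were lower in CKO 4OHT, where 47.8% of the 7461 measured genes were, and the median was -0.34 against 0.01 over all measured genes. Dsc1 (-1.41, and -1.01 with a pseudocount of 16) was the 1 gene past 2-fold. In either direction, 3.69% of measured genes were past 2-fold. The other 8 lay between -0.11 for Dsc3 and -0.45 for Jup. Related lists taken up below were also mostly lower in CKO 4OHT. Above 0 were 1 of 7 adherens junction genes, 3 of 11 plakins and keratins, 1 of 7 transcription factors and 2 of 11 trafficking genes. Their medians were -0.20, -0.10, -0.21 and -0.25. The corneodesmosome list went the other way, with 4 of 5 above 0 and a median of 0.38.

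CKO 4OHT against CKO EtOH set the inducer against solvent in cells with CreER. None of the 9 was past 2-fold, where 3.65% of measured genes were, and the median was -0.12 against 0.01. Dsg2 (-0.98) was the 1 gene at least 1.5-fold lower, where 5.47% of measured genes were. The others were between -0.25 for Pkp1 and 0.35 for Dsc3, 5 of them below 0 and 3 above. With Dsg2, 6 of 9 were thus below 0, where 48.6% of the 7461 measured genes were.

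Control 4OHT against control EtOH gave the same agent without CreER, with any other difference between the 2 cultures. Here 8 of 9 genes were above 0, as were 43.3% of measured genes, with a median of 0.41 against -0.04. Past 2-fold by the brightest probe sets was Dsc1 alone (1.51% of measured genes in either direction), while 1427610_at put Dsp past it too (1.12). At least 1.5-fold higher were all 3 desmocollins, Dsc1, Dsc3 and Dsc2 (3.95% of measured genes), and Dsg2 was at least 1.5-fold lower (3.91%). Dsc2 was just past this threshold with 0.59 and fell short of it with a pseudocount of 16 (0.53) or median centring (0.57). By 1439476_at, Dsg2 also fell short (-0.17), and by 1418832_at Pkp3 was just past 1.5-fold higher (0.59). In CKO EtOH against control EtOH no desmosome gene was past 2-fold, and 4 of 7461 genes were (0.0536%). Dsc1 (0.63) was the 1 gene at least 1.5-fold higher there (0.59% of measured genes). Above 0 were 7 of 9 desmosome genes and 43.7% of measured genes, and the median was 0.09 against -0.03.

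By the brightest probe sets, the difference of the 4OHT effects, CKO minus control, was below 0 for all 9 genes. The same held for 45.3% of measured genes, and the median was -0.50 against 0.04. It was past 2-fold for Dsc1 (-2.04), where 5.64% of measured genes were, and at least 1.5-fold lower also for Pkp3 (-0.62), where 8.51% were. Dsp had the smallest value, -0.04 by its brightest probe set and -0.76 by 1427610_at. Dsg2 was at -0.23 by 1449740_s_at and at -1.12 by 1439476_at. Its further probe sets differed in sign, with 0.10 by 1425619_s_at and -0.63 by 1460380_at. Under the level filter, 1449741_at gave 0.18 and 1426153_a_at -0.04. Control 4OHT enters this difference, the comparison with CKO 4OHT and the comparison with control EtOH, so a high value on that array moves all 3 and they do not support each other. Dsc1 also stood at least 2-fold apart from every other array in control 4OHT (0.308% of measured genes). No desmosome gene did so in CKO 4OHT (1.84% of measured genes), and no gene at all did in CKO EtOH or control EtOH (0.0%).

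**Figure D2:**
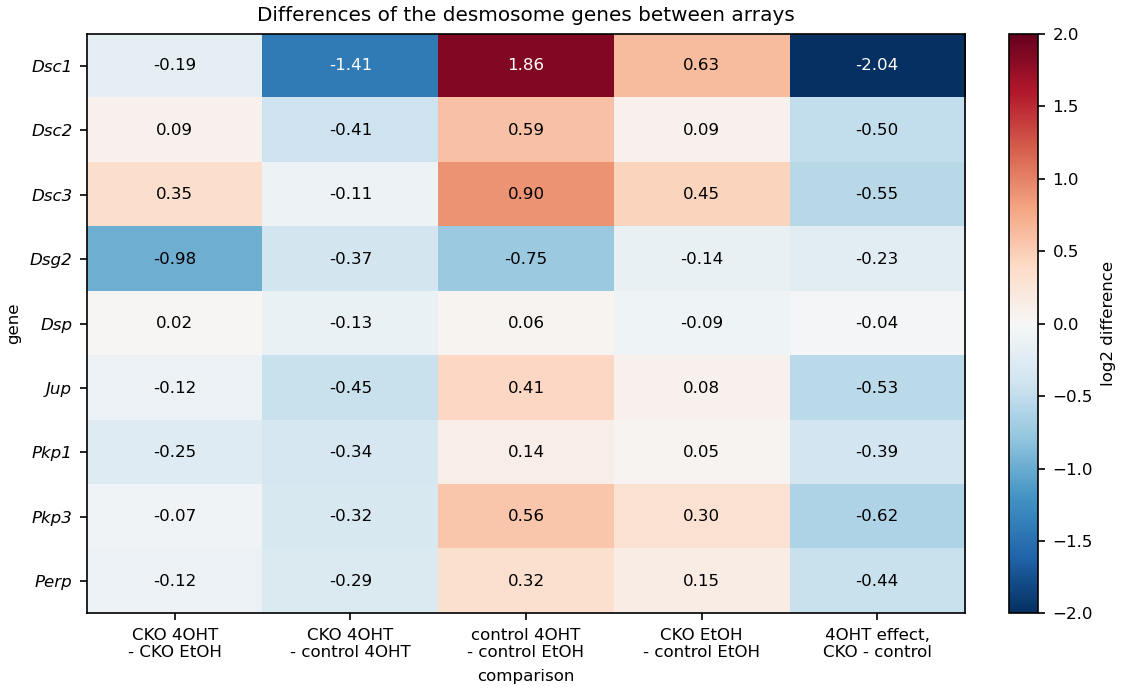
Log2 difference of each desmosome gene (y axis, by its brightest probe set) in the 4 comparisons and in the 4OHT effect of CKO minus that of control cells (x axis). Colour and number give the difference; all 9 genes are below 0 in CKO 4OHT minus control 4OHT, from -0.11 to -1.41, and Dsg2 alone is below 0 in control 4OHT minus control EtOH.

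**Figure D3:**
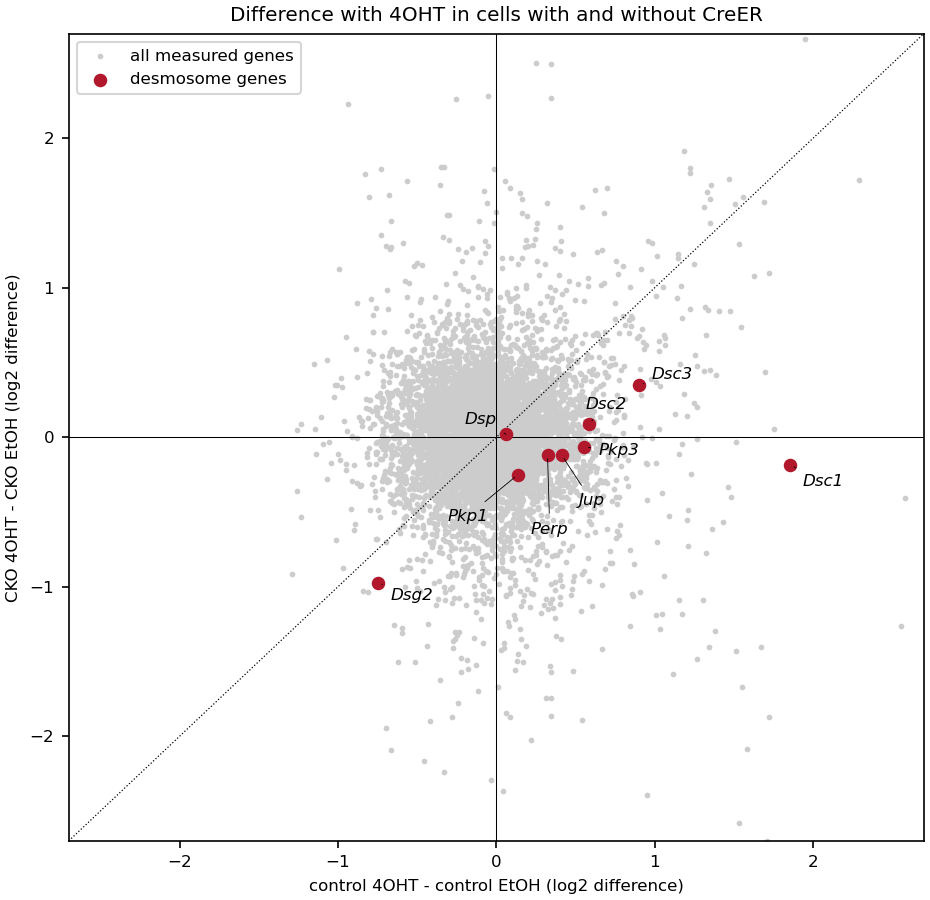
Log2 difference with 4OHT in CKO cells (y axis) against that in control cells (x axis), 1 point per measured gene, with desmosome genes in red and equal differences on the dotted line; 16 genes lie outside the axes. By their brightest probe sets, all 9 desmosome genes lie below the dotted line. Dsc1 lies furthest from it (1.86 in control, -0.19 in CKO) and Dsp next to it, and Dsg2 is low on both axes.

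Genes that work with the desmosome were taken from lists of the pathway. Of the other desmosomal genes, Pkp4 was at 67.4 in CKO 4OHT, 72.5 in CKO EtOH, 67.1 in control 4OHT and 96.9 in control EtOH. It differed by 0.01 in CKO 4OHT against control 4OHT and by -0.53 in control 4OHT against control EtOH. The members had medians of -0.34 and 0.41 there. Pkp2, a plakophilin of simple epithelia and heart, was under the level filter, with 19.6 as its highest value. Its differences in these comparisons were -0.50 and 0.67. In the adherens junction, the actin-linked junction beside the desmosome, 1 of 7 measured genes was past 2-fold in CKO 4OHT against CKO EtOH and none in the other 3 comparisons, beside the shares of all measured genes given above (3.65% there and 0.0536% to 3.69% in the others). That gene was Vcl, vinculin, at 138 in CKO 4OHT, 277 in CKO EtOH, 274 in control 4OHT and 258 in control EtOH (-1.01 and -0.99 for CKO 4OHT against CKO EtOH and control 4OHT). A second Vcl probe set gave -0.69 and -0.79. The brightest members, Ctnnb1 and Ctnna1, the β- and α-catenins, differed by no more than 0.20 in any comparison.

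Among 11 plakins and keratins that the plaque holds, Krt1 was the 1 gene past 2-fold in CKO 4OHT against both CKO EtOH (-3.23, where 3.65% of measured genes were past 2-fold) and control 4OHT (-3.50, where 3.69% were). Ppl, periplakin, was at 219 in CKO 4OHT, 169 in CKO EtOH, 281 in control 4OHT and 139 in control EtOH, and was past 2-fold in the control comparison (1.01, where 1.51% of measured genes were). Krt14 and Krt6a, the brightest, differed by no more than 0.12. The list's medians were -0.04 against CKO EtOH, -0.10 against control 4OHT and 0.10 for 4OHT in control cells.

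The next list held corneodesmosin and proteases that shed cells at the skin surface. Of 5 measured, 3 were past 2-fold higher in CKO 4OHT against CKO EtOH, 1 against control 4OHT and 4 in control 4OHT against control EtOH, and none was lower. The shares of measured genes past 2-fold in either direction were 3.65%, 3.69% and 1.51% in these comparisons. Cdsn, corneodesmosin, the glycoprotein of the modified desmosome of the cornified layer, was at 383 in CKO 4OHT, 213 in CKO EtOH, 559 in control 4OHT and 201 in control EtOH. Klk7, a protease that cleaves corneodesmosin and desmocollin 1 in human skin, was at 1592 in CKO 4OHT, 792 in CKO EtOH, 1343 in control 4OHT and 648 in control EtOH. Both 4OHT arrays were thus high for Klk7, with differences of 1.01 in CKO and 1.05 in control cells, beside -0.19 and 1.86 for Dsc1. Klk6, at 400 in CKO 4OHT, 106 in CKO EtOH, 147 in control 4OHT and 64.5 in control EtOH, was the gene past 2-fold against control 4OHT. Klk8 was at 983 in CKO 4OHT, 289 in CKO EtOH, 651 in control 4OHT and 279 in control EtOH.

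No gene of 7 measured transcription factors known to act on desmosome or epidermal genes was past 2-fold in any of the 4 comparisons, where 0.0536% to 3.69% of all measured genes were. Trp63, the p63 gene, was at 320 in CKO 4OHT, 364 in CKO EtOH, 407 in control 4OHT and 383 in control EtOH. Klf4, a factor of upper-layer differentiation, was at 566 in CKO 4OHT, 429 in CKO EtOH, 487 in control 4OHT and 362 in control EtOH, with both 4OHT arrays above both EtOH arrays. Of 11 measured genes of desmosome trafficking, kinases and shedding, 1 was past 2-fold, in CKO 4OHT against CKO EtOH (3.65% of measured genes) and against control 4OHT (3.69%), and none in the other comparisons. This was Flot1, a raft protein that binds desmoglein 3 in human keratinocytes, at 30.3 in CKO 4OHT, 77.1 in CKO EtOH, 81.7 in control 4OHT and 73.2 in control EtOH. Kif5b, a kinesin that moves Dsg2 in human cells, differed by no more than 0.08, and Pof1b, a keratin-associated protein of the desmosome, was at 547 in CKO 4OHT, 582 in CKO EtOH, 919 in control 4OHT and 583 in control EtOH.

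**Figure D4:**
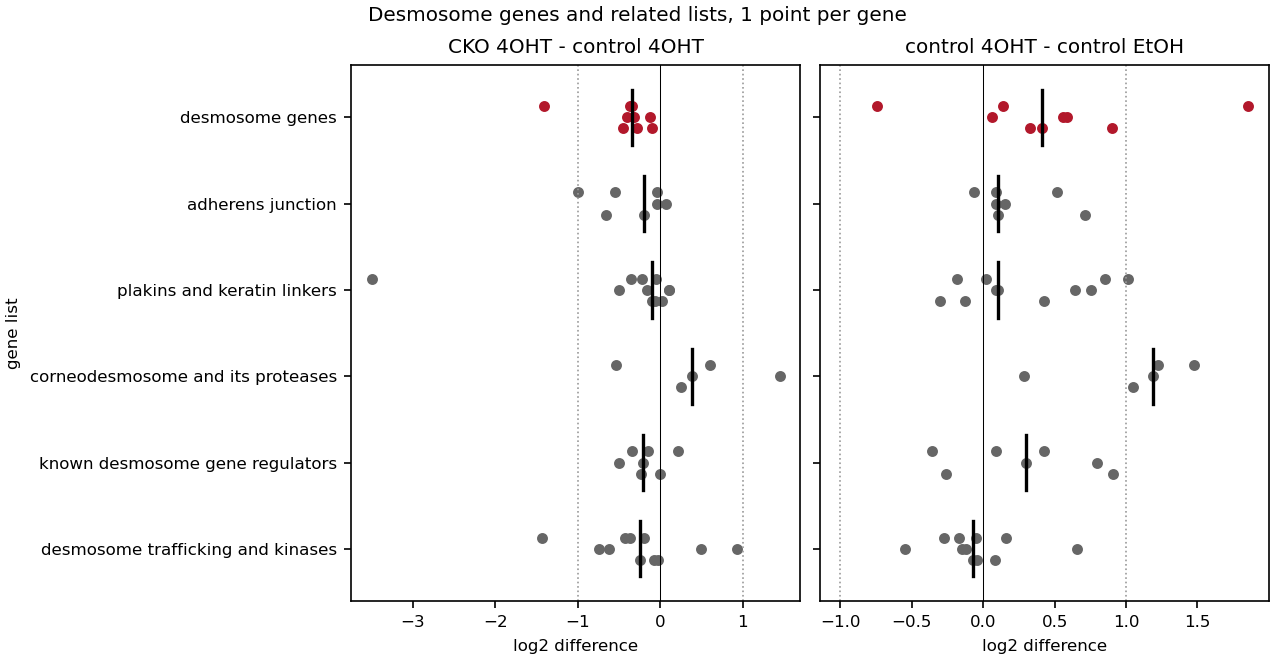
Log2 difference (x axis) of each measured gene of the desmosome and of 5 related lists (y axis), for CKO 4OHT minus control 4OHT and for control 4OHT minus control EtOH; black bars are medians and dotted lines mark 2-fold. The desmosome genes have medians of -0.34 and 0.41, and the corneodesmosome list has medians of 0.38 and 1.19. The list of other desmosomal genes, with Pkp4 as its 1 measured gene, is not drawn.

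Patterns over the 4 arrays were compared by the root mean square distance between log2 values centred on their mean. The 5 measured genes nearest to Dsc1, at distances of 0.12 to 0.21, were Serpinb11, Sprr2j-ps, Pdzk1ip1, Il1f5 and Slc5a1. Serpinb11, a clade B serpin, was at 50.4 in CKO 4OHT, 48.5 in CKO EtOH, 107 in control 4OHT and 31.7 in control EtOH. Il1f5, the IL-36 receptor antagonist, was at 80.0 in CKO 4OHT, 101 in CKO EtOH, 225 in control 4OHT and 81.9 in control EtOH. All 5 had their highest value in control 4OHT, which follows from choosing them by closeness to Dsc1. Those nearest to Dsg2, at 0.05 to 0.09, were Hmgn5, Chpt1, Cnp, Sh3bgrl and Cotl1; Cotl1, a coactosin-like actin-binding protein, was at 72.9 in CKO 4OHT, 149 in CKO EtOH, 83.0 in control 4OHT and 149 in control EtOH. Nearest to the mean pattern of the 9 desmosome genes were Olfml2b, Rhot2, Plekha5, Sspo and Myo1c, at 0.01 to 0.02. With 4 arrays many genes share a pattern, and these names describe only the closest values.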

How the data were processed

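The study hybridised RNA of 4 keratinocyte cultures to Affymetrix 430A mouse arrays, 1 array per group. Its deposited values are linear intensities per probe set (2.66 to 7167.2), made with RMA per the submitters' processing notes, with no version stated there. RMA corrects background, normalizes between arrays and summarises probes, so a shift of most transcripts would be lost. The table has no detection calls. Here log2 was taken with no pseudocount (Python 3.11.15, pandas 2.3.3).

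Of 22626 probe sets, 20380 named 1 gene by the platform annotation, 691 several and 1555 were not listed; Entrez identifiers of 20351 matched RefSeq. The probe set with the highest mean stood for a gene. Counts took differences of at least 2-fold or 1.5-fold, with no p-value, since groups had 1 array. A gene was apart on an array when at least 2-fold beyond the other 3. Counting was checked on simulated arrays. Genes of the lists were named when at least 2-fold different in a comparison or apart on an array. The 2 brightest others of each list or fewer were added, with all members. Also named were the 5 nearest patterns of Dsc1, Dsg2 (log2 range of at least 1) and the mean. Krt10, Lor, Flg, Ivl, Itgb4 and the keratinocyte markers set beside Itgb4 were chosen after their values were seen. Members and lists were chosen with earlier results of these data known.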

Additional observations from a re-analysis of the deposited data

Results flagged for a closer look

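The difference with 4OHT had opposite signs in CKO and control cells for 5 of 9 desmosome genes, lower in CKO and higher in control each time. Opposite signs held for 48.7% of the 7461 measured genes, and this combination of signs for 20.4%. This was not tested, since each group is 1 array, and a small difference takes a sign as readily as a large one. On the log2 scale the effect in CKO minus that in control was -2.04 for Dsc1, -0.62 for Pkp3, -0.53 for Jup, -0.44 for Perp and -0.39 for Pkp1. By the brightest probe sets, the CKO differences of these genes were between -0.07 and -0.25. Of them Dsc1 alone was at least 1.5-fold different from solvent in control cells (1.86). By 1418832_at, Pkp3 was just past 1.5-fold in control cells (0.59) and at -0.35 in CKO cells.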

How the results depend on the processing

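The medians of the desmosome genes kept their sign in each of 35 recalculations and moved by less than 0.1. These covered the level filter, a pseudocount of 16, the mean over probe sets, the omission of probe sets that can cross-hybridise, and median or quantile normalization. Counts of genes past the threshold moved in 13 of 49. With the level filter at the 75th percentile Dsc1 dropped out, and the count became 0 for CKO 4OHT against control 4OHT, for control 4OHT against control EtOH, for the difference of the drug effects and for genes apart on 1 array. The last was also 0 with the pseudocount of 16, where Dsc1 differed by 1.27 in control cells, by 0.37 between the EtOH arrays and by -1.38 in the difference of the drug effects, and 0 with control 4OHT left out. At 1.5-fold the counts were 1 for CKO 4OHT against CKO EtOH, 4 for control 4OHT against control EtOH, 1 for CKO EtOH against control EtOH and 2 for the difference of the drug effects. Without cross-hybridising probe sets Dsg2 was read by 1439476_at, and the counts were 1 for CKO 4OHT against CKO EtOH and 2 for the difference of the drug effects (Dsg2 at -1.29 and -1.12). Jup has no probe set under that choice. Quantile normalization put Dsg2 at -1.01 and that first count at 1. No paired analysis was possible because each group has 1 array. Without detection calls, signal over background is not known for dim values such as those of Dsc1.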
